A study of Mus musculus with 16 samples.

Results

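Cd68 was measured as 1 of the 770 genes of a neuropathology panel in RNA from the brains of 16 mice. The gene was chosen with its levels in these animals already known, so its levels and the differences between genotypes are given here as a description with errors, and with no test of Cd68 itself. All animals were female and 6 months old. They comprised 4 wild type mice, 4 Grn knockout mice, 4 Trem2 knockout mice and 4 Grn/Trem2 double knockout mice. The sources used here do not name the knockout alleles, the strain or the part of each transcript that a probe covers. The panel was read on the nCounter platform, which counts barcoded probes bound to RNA without amplification, and values below are the deposited counts scaled by 1 factor per animal (normalized counts).

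Cd68 is a heavily glycosylated membrane protein of the LAMP family. It sits mainly in late endosomes and lysosomes of macrophages and of microglia, the phagocytes of the brain, and staining for it is widely used to mark phagocytic microglia. Grn encodes progranulin, a protein that is secreted and also delivered to lysosomes, where it is cut into granulins. Trem2 encodes a lipid-sensing receptor on microglia that signals through the adaptor TYROBP. The design asked how loss of TREM2 bears on the microglial and lysosomal state of mice that lack progranulin.

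Over the 16 animals, with the differences between genotypes kept, transcripts of the C1q chains followed Cd68 most closely. The ranking covered the 705 tested genes other than Cd68, Grn and Trem2. With the genotype means removed the likeness was weaker, and other genes ranked higher. In the brain the C1q chains are also made by microglia. The sequences of 250 bases upstream of the transcription start are shown for Cd68 and for the 2 C1q genes held in the promoter table. They are from RefSeq (GRCm38.p6), each printed 5′ to 3′ on the strand of its gene, which is the minus strand for all 3. Capitals mark GAGGAA, a core sequence bound by the myeloid factor PU.1, or its reverse complement TTCCTC.
Cd68, chr11:69666171-69666420: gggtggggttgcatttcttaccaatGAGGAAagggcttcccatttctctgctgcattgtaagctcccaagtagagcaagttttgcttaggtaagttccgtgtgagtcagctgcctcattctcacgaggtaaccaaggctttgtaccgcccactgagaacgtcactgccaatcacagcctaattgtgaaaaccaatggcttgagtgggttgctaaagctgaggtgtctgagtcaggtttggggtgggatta
C1qb, chr4:136886201-136886450: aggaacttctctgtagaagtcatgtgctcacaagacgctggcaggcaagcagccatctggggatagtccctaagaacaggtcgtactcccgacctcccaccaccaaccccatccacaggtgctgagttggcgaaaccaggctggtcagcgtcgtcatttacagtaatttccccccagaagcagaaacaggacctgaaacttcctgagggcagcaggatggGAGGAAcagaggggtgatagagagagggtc
C1qc, chr4:136892915-136893164: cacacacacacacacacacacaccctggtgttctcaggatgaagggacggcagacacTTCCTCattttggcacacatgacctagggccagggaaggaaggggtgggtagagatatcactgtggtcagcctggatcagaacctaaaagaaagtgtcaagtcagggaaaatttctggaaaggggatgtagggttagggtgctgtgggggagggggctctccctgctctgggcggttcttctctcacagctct
The motif began 225 bases upstream of the start of Cd68, 30 bases upstream of that of C1qb and 193 bases upstream of that of C1qc. On either strand it was present in 23.3% of 32851 promoter windows of the same length. CACGTG, the E-box within the element that the factor TFEB binds at lysosomal genes, was found in 6.02% of those windows and in none of the 3 shown. These matches are descriptions of the letters in the windows.

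The knocked-out genes followed the labels. Grn averaged 617 ± 45.4 (SD, n = 4) normalized counts in wild type and 13.6 ± 4.72 in the Grn knockout, and 589 ± 34.0 in the Trem2 knockout against 16.9 ± 4.62 in the double knockout. Trem2 averaged 143 ± 13.2 in wild type and 232 ± 29.3 in the Grn knockout, and 17.3 ± 12.4 and 14.1 ± 6.66 in the 2 genotypes that lack it. Every panel marker of astrocytes (6), neurons (8) and oligodendrocytes (8) exceeded the background threshold in every animal, as did 7 of 8 homeostatic microglia markers. The threshold of an animal was the mean of its 8 negative control probes plus 2 SD. Gene counts per animal ran from 477113 to 767742.

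Cd68 was detected in every animal, at 78 to 208 counts before scaling and at no less than 2.85 times the threshold of that animal. In wild type it measured 131, 91.9, 107 and 113 normalized counts (mean 111 ± 16.2, SD, n = 4). In the Grn knockout it measured 184, 220.4, 182 and 181 (192 ± 19.1). All Grn knockout animals thus lay above all wild type animals, with 1 animal, replicate 2, well above the other 3. In the Trem2 knockout Cd68 measured 96.4, 116, 84.7 and 96.0 (98.3 ± 13.02). In the double knockout it measured 159.6, 145, 138 and 168 (153 ± 13.6). The double knockout animals formed a band of their own, above all wild type and Trem2 knockout animals and below all Grn knockout animals. The order of the means was Trem2 knockout, wild type, double knockout, Grn knockout, and only the first 2 of these overlapped, the Trem2 knockout animal being the higher in 5 of 16 pairs.

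**Figure D1:**
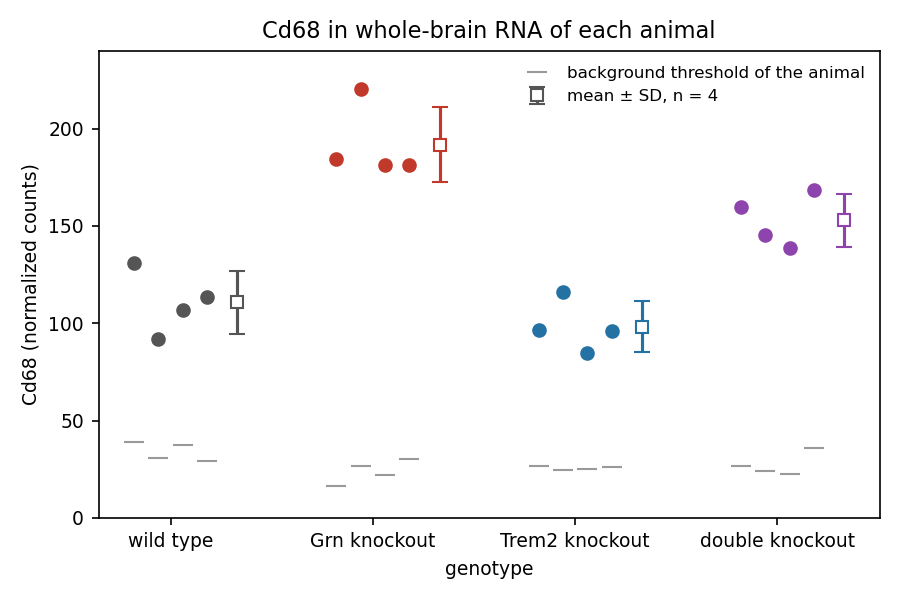
Cd68 in normalized counts (vertical axis, from 0) in each of the 16 animals, grouped by genotype (horizontal axis). Points are animals, squares with bars are the mean ± SD of 4 animals, and grey dashes are the background threshold of each animal; the double knockout animals (138 to 168) sit between wild type (91.9 to 131) and the Grn knockout (181 to 220.4).

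The spread of Cd68 within a genotype was not far above what counting alone gives. The coefficient of variation was 14.6% in wild type, 9.96% without Grn, 13.2% without Trem2 and 8.90% without both, against 9.79%, 7.56%, 10.5% and 8.42% from counting error. On the log2 scale the SD within genotypes was 0.17, the SD that counting gives was 0.13, and counting thus made up 62.0% of the variance within genotypes.

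The first comparison, Grn knockout against wild type, addresses progranulin loss alone. Cd68 was 1.73-fold higher in the Grn knockout (log2 difference 0.79, SE 0.12, 95% interval 0.55 to 1.04). That was the highest log2 difference of the 708 genes tested, where the median was -0.02. In this comparison 4 of 708 genes (0.565%) were past limma's threshold of an adjusted p under 0.05. That count includes Cd68, which was chosen on these values, so nothing is read from its inclusion; the others were C1qa, C1qb and Grn itself. In 8 genes (1.13%) all 4 Grn knockout animals lay above all 4 wild type animals. Without Grn knockout replicate 2 the log2 difference of Cd68 was 0.72. The negative control probes, on the scale of the genes, averaged 18.3 ± 3.003 in wild type and 13.4 ± 1.90 in the Grn knockout, and with each animal's negative control mean subtracted Cd68 measured 92.5 ± 14.2 and 178 ± 18.3 in these groups (log2 difference 0.96).

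The comparison of the Trem2 knockout with wild type addresses loss of TREM2 alone. Cd68 had a log2 difference of -0.17 (SE 0.12, 95% interval -0.41 to 0.08), an interval that holds 0, and the value was 0.04 when the animals were scaled to the positive control probes instead of as deposited. Trem2 was the 1 gene of 708 (0.141%) that passed limma's test.

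The comparison of the double knockout with wild type addresses the loss of both genes. Cd68 was 1.38-fold higher in the double knockout (log2 difference 0.47, SE 0.12, 95% interval 0.22 to 0.72), the 8th highest of 708 log2 differences. The 2 genes (0.282%) that passed limma's test were Grn and Trem2, and 7 genes (0.989%) had all 4 double knockout animals above all 4 wild type animals. Relative to wild type, the mean of Cd68 was 81.0 normalized counts higher in the Grn knockout and 42.2 higher in the double knockout, so that the double knockout held 52.0% of the difference seen in the Grn knockout. Leaving out any 1 animal gave 45.6% to 58.9%, a range that shows the pull of single animals and is not a confidence interval. The wild type animals enter both differences.

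The comparison of the double knockout with the Grn knockout measures the effect of TREM2 loss on a progranulin-deficient background. Cd68 was 0.799 times its Grn knockout level in the double knockout (log2 difference -0.32, SE 0.12, 95% interval -0.57 to -0.08), the 33rd lowest of 708. Of all genes tested, 2 (0.282%) passed limma's test, C1qb and Trem2, and in 18 genes (2.54%) all double knockout animals lay below all Grn knockout animals.

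The comparison of the double knockout with the Trem2 knockout measures the effect of progranulin loss on a TREM2-deficient background. Cd68 was 1.56-fold higher in the double knockout (log2 difference 0.64, SE 0.12, 95% interval 0.39 to 0.88), the 4th highest of 708. Here 3 genes (0.424%) were past limma's threshold; nothing is read from the inclusion of Cd68 in that count, and the others were C1qb and Grn. In 16 genes (2.26%) all double knockout animals lay above all Trem2 knockout animals. In normalized counts the difference was 54.6, against 81.0 between the Grn knockout and wild type. The interaction, which is the first of these differences minus the second on the log2 scale, was -0.16 for Cd68 (SE 0.16, 95% interval -0.50 to 0.19). For the interaction 0 of 708 genes (0%) passed limma's test, 24 had an unadjusted p under 0.05, and voom, run on the counts before scaling, called 0 as well.

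C1q is the complex that starts the classical complement cascade and also tags material for phagocytosis, and C1qa, C1qb and C1qc encode its 3 chains. C1qa measured 559.8, 539.6, 530.1 and 503 normalized counts in wild type, 826, 963, 688 and 894 without Grn, 579, 504, 409.6 and 389 without Trem2 and 598, 544, 600.05 and 637 without both. The double knockout animals lay below all Grn knockout animals, as they did for Cd68, but overlapped with wild type. C1qb measured 809, 728, 775 and 713 in wild type, 956, 1180.4, 983 and 1242 without Grn, 599, 551, 589 and 545 without Trem2 and 817, 797, 819 and 774 without both. Again the Grn knockout stood above all other animals and the double knockout overlapped with wild type, while the Trem2 knockout stood below all others. C1qc measured 525, 491, 440.1 and 509 in wild type, 652, 694, 584 and 710.5 without Grn, 427, 451, 430.2 and 328 without Trem2 and 495, 438, 553 and 539 without both. Its Grn knockout animals also stood above all the others.

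In the Grn knockout C1qa rose 1.57-fold (log2 difference 0.65, SE 0.12, limma adjusted p = 0.0144) and C1qb 1.43-fold (0.52, SE 0.08, limma adjusted p = 0.00353), while C1qc had a log2 difference of 0.42 (SE 0.11, limma adjusted p = 0.177). The call of C1qa ended without wild type replicate 3 or 4 or Grn knockout replicate 2 or 4 (limma adjusted p up to 0.0766), and that of C1qb held without any 1 animal but ended with only the 2 groups in the fit; both ended under scaling to the positive controls. From the Grn knockout to the double knockout C1qb fell (log2 difference -0.43, SE 0.08, limma adjusted p = 0.0353), a call that held in 4 of the 16 fits that leave out 1 animal. It also ended under positive control scaling and with only the 2 groups in the fit (limma adjusted p up to 0.999). In the same comparison C1qa had -0.49 (limma adjusted p = 0.216) and C1qc -0.38 (limma adjusted p = 0.309). Cd68 had -0.32 there (95% interval -0.57 to -0.08), and whether it differed from the chains was not tested. From the Trem2 knockout to the double knockout C1qb rose (0.49, SE 0.08, limma adjusted p = 0.00998), a call that ended without Trem2 knockout replicate 4 (limma adjusted p = 0.0516) and under positive control scaling (limma adjusted p = 0.948). There C1qa had 0.35 and C1qc 0.31 (limma adjusted p = 0.793 for both).

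Set against wild type, the estimated difference of the double knockout was larger for Cd68 than for the C1q chains. The double knockout held 19.95% of the Grn knockout's difference from wild type for C1qa (15.4% to 25.5% on leaving out 1 animal). The share was 13.6% for C1qb (9.73% to 17.9%) and 8.99% for C1qc (-1.24% to 22.4%), beside the 52.0% for Cd68. These shares take wild type as the base. In the Trem2 knockout against wild type the chains had log2 differences of -0.20, -0.40 and -0.27 (not called). Means were 124, 231 and 97.2 normalized counts higher in the double than in the Trem2 knockout, and 54.6 for Cd68. They were 310, 334 and 169 higher in the Grn knockout than in wild type, and 81.0 for Cd68. The interactions were -0.30, -0.03 and -0.11 for the chains, beside -0.16 for Cd68. Between the double knockout and wild type the log2 differences were 0.16 for C1qa, 0.09 for C1qb and 0.04 for C1qc (SE 0.12, 0.08 and 0.11, limma adjusted p = 0.730, 0.782 and 0.929), beside 0.47 for Cd68. Relative to the mean log2 level of the 3 chains in the same animal, Cd68 stood at -2.39 ± 0.18 in wild type, -2.13 ± 0.15 without Grn, -2.27 ± 0.21 without Trem2 and -2.02 ± 0.13 without both. These levels depend on the probes, and only their differences between genotypes can be read. The 4 double knockout animals (-2.22 to -1.93) lay only just above the 4 wild type animals (-2.64 to -2.23), by less than the SD of either group. They overlapped with the Grn knockout (-2.34 to -2.01). Since Cd68 was chosen on these values, that difference was not tested.

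**Figure D2:**
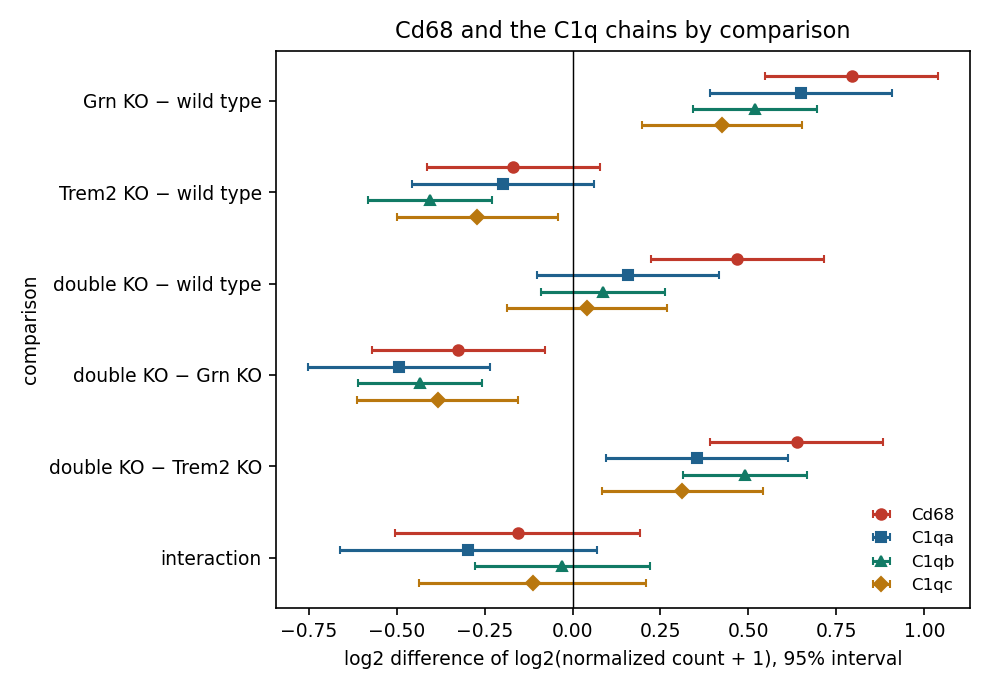
Differences between genotypes on the log2(normalized count + 1) scale (horizontal axis) for Cd68, C1qa, C1qb and C1qc in 6 comparisons (vertical axis, KO for knockout), with points as estimates from the fit over 16 animals and bars as 95% intervals. For the double knockout against wild type the estimate was 0.47 for Cd68 and 0.16, 0.09 and 0.04 for C1qa, C1qb and C1qc. The interval of Cd68 (0.22 to 0.72) overlaps with those of the chains (-0.10 to 0.42, -0.09 to 0.26 and -0.19 to 0.27). Cd68 was chosen on these values, so its interval is a description and no test.

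Whole-brain RNA does not separate more microglia, or fewer, from more RNA or less per cell, and these cannot be told apart here. Homeostatic microglia genes, which mark resting microglia, gave a reference for the microglial share. The mean log2 level of the 7 tested ones was 8.07 ± 0.09 in wild type, 8.26 ± 0.14 without Grn, 8.07 ± 0.12 without Trem2 and 8.18 ± 0.06 without both. Cd68 minus that mean was -1.27 ± 0.21 in wild type, -0.67 ± 0.15 without Grn, -1.44 ± 0.20 without Trem2 and -0.92 ± 0.10 without both. All Grn knockout animals (-0.80 to -0.53) stood above all double knockout animals (-1.06 to -0.85), and these overlapped with wild type (-1.49 to -0.99). Relative to these genes the difference between the Grn knockout and wild type was 0.60 and that between the double knockout and wild type 0.35. With Csf1r alone, the receptor for the survival signal of microglia, as the reference, they were 0.78 and 0.53.

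In the Grn knockout against wild type all 7 tested homeostatic genes lay above 0, and 0 passed limma's test. Their median log2 difference was 0.17, where the median of all genes was -0.02. Fcrls, a microglial Fc receptor-like scavenger protein, had 0.41 (limma adjusted p = 0.726) and P2ry12, a purine receptor of microglial processes, 0.24. Itgam had 0.17, Tmem119 0.13 and Cx3cr1 0.06. In the double knockout against the Trem2 knockout 5 of 7 lay above 0 (median 0.03), with Fcrls at 0.61 (limma adjusted p = 0.329). Against wild type the double knockout had 4 of 7 above 0 (median 0.10). There Fcrls had 0.54 (limma adjusted p = 0.239), beside 0.47 for Cd68.

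Of the 22 genes of the activated microglia list, Cd68 included, 9 were on the panel, and 7 genes other than Cd68 were tested. Cybb, the membrane subunit of the phagocyte NADPH oxidase, reached the minimum mean of 20 normalized counts only through the Grn knockout (30.6, against 19.1 over the other 12 animals), so the list is counted without it. Of the other 6 genes 5 lay above 0 in the Grn knockout against wild type (median 0.13) and 0 passed limma's test. Ncf1, which encodes a cytosolic part of that oxidase, had 0.49 (limma adjusted p = 0.496), and Apoe, an apolipoprotein that microglia raise on activation, 0.20 (limma adjusted p = 0.726). Tlr2, an innate receptor above the background threshold in 6 of 16 animals, had 0.28, and Csf1 had -0.18. From the Grn knockout to the double knockout 4 of 6 lay below 0 (median -0.12), with Tlr2 at -0.65 and Ncf1 at -0.45, and 0 passed.

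The other tested lysosomal genes were divided in direction in the Grn knockout. Of the 69 lysosomal genes listed, Cd68 included, 26 were on the panel. Of 24 tested genes for lysosomal membrane proteins, enzymes and the proton pump, 13 lay above 0 in the Grn knockout against wild type, with a median of 0.02, and 0 passed limma's test. Among the 10 enzymes and luminal proteins 8 lay above 0 (median 0.10). Npc2, a cholesterol carrier, had 0.15, and the glycan and glycolipid hydrolases Naglu, Gusb, Man2b1 and Galc had 0.14, 0.13, 0.11 and 0.09. Of the 5 membrane proteins 3 lay above 0 (median 0.02), with Lamp1, a relative of Cd68 and a major glycoprotein of the lysosomal membrane, at 3080 ± 138 in wild type and 3116 ± 133 in the Grn knockout (log2 difference 0.02, limma adjusted p = 0.996). Of the 9 genes of the vacuolar proton pump, which acidifies lysosomes, 2 lay above 0 (median -0.03), and Atp6v0e2 had the lowest value of the list, -0.23. In the double knockout against the Trem2 knockout all 10 enzymes and luminal proteins lay above 0 (median 0.14, highest 0.34) and 19 of the 24 lysosomal genes did (median 0.08), where the median of all genes was 0.01; 0 passed limma's test. From the Grn knockout to the double knockout 8 of the 10 lay below 0 (median -0.08), and in the Trem2 knockout against wild type 9 of 10 did (median -0.12), again with 0 past the test.

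Complement genes, the 3 C1q chains among them, had the highest median of the lists in the Grn knockout. All 6 tested lay above 0 in the Grn knockout against wild type (median 0.32), and 2 rose, C1qa and C1qb, where 0.565% of all genes were called. In the double knockout against the Grn knockout all 6 lay below 0 (median -0.41) and 1, C1qb, fell, where 0.282% of all genes were called. In the first comparison the members other than the C1q chains lay below the list's median of 0.32. C3, the central component, had 0.05, Itgam, which is also in the homeostatic microglia list, 0.17 and C4a 0.21. C3 exceeded the background threshold in 14 of 16 animals and C4a in 9.

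Markers of blood-borne leukocytes, among which monocytes and macrophages also express Cd68, were low, and their summed levels overlapped between the 4 genotypes. Of 15 such markers 5 were on the panel. Their summed level was 134 to 201 normalized counts in wild type, 144 to 207 in the Grn knockout, 148 to 193 in the Trem2 knockout and 153 to 167 in the double knockout. In each genotype 2 of the 5, Cd44 and Cd4, exceeded the threshold in every animal, and Ccr2, the chemokine receptor of monocytes, averaged 23.6 ± 7.05, 28.7 ± 9.91, 28.5 ± 9.76 and 28.9 ± 7.09 in the same order. Cd8a exceeded the threshold in 0 of 16 animals and Itgal in 1. No marker was listed at 0.

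Markers of other brain cells differed between genotypes in direction, with 0 past limma's test, and their part in the Cd68 levels was not tested. All 8 oligodendrocyte markers lay below 0 against wild type in each knockout, with median log2 differences of -0.15 without Grn, -0.18 without Trem2 and -0.19 without both. Their summed level was 6509 to 8592 normalized counts in wild type, 6428 to 8074 without Grn, 6562 to 7679 without Trem2 and 5644 to 7437 without both. All 6 endothelial markers lay below 0 in the double knockout against wild type (median -0.32) and against the Grn knockout (median -0.29), with summed levels of 743 to 866 in the double knockout, 920.3 to 1113 in wild type and 838 to 1065 in the Grn knockout. Gfap, the intermediate filament of astrocytes, averaged 794 ± 187 in wild type, 1081 ± 134 without Grn, 638 ± 160 without Trem2 and 743 ± 109 without both. Its log2 difference was 0.46 for the Grn knockout against wild type (limma adjusted p = 0.726). For the double against the Grn knockout it was -0.54 (limma adjusted p = 0.492). The 6 astrocyte markers as a list had medians near 0 there, 0.02 (5 of 6 above 0) and -0.03 (4 of 6 below 0). Gfap had the highest value of the list in the first comparison and the lowest in the second.

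Likeness to Cd68 was measured as Pearson's r on the log2 scale over the 16 animals, for the 705 genes tested other than Cd68, Grn and Trem2. The animals share genotypes, so this r holds the differences between genotypes, and it is given as a description with no p. The 3 C1q genes ranked first, with r of 0.87 for C1qa, 0.85 for C1qb and 0.81 for C1qc (Spearman's rho 0.88, 0.84 and 0.83). They were the 3 genes above 0.8, and 6 genes were above 0.7. High values were also found for Psmb8, an immunoproteasome subunit, at 0.77, Cers1, a ceramide synthase, at 0.70 and Fcrls at 0.69. Cybb had 0.70, but it exceeded the background threshold in 2 of 16 animals and was tested only through its Grn knockout level, so nothing is read from it. Without the 2 animals farthest from the median of Cd68, Grn knockout replicate 2 and Trem2 knockout replicate 3, r was 0.79 for C1qa, 0.79 for C1qb and 0.76 for C1qc. Lamp1 had 0.45, and 0.25 without those animals. The median over all genes was -0.00.

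Psmb8 measured 73.0, 58.0, 57.4 and 70.6 in wild type, 85.3, 83.7, 70.4 and 75.0 without Grn, 67.1, 61.1, 60.8 and 54.8 without Trem2 and 66.3, 73.5, 84.6 and 73.4 without both. Its genotype means lay in the order of those of Cd68, with overlap between each neighbouring pair. Fcrls did not keep that order, since its Grn knockout mean, 151 ± 29.5, was below its double knockout mean, 164 ± 32.1.

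With the genotype means removed, the relation of Cd68 to its nearest genes was weaker. Over the 16 deviations r was 0.43 for C1qa (two-sided exact permutation p = 0.141, adjusted p = 0.992 over 705 genes; rho 0.40, exact p = 0.202), 0.29 for C1qc and 0.15 for C1qb. Without the 2 animals farthest from the median deviation, wild type replicate 1 and Trem2 knockout replicate 2, these became 0.37, 0.03 and 0.11. In wild type (replicate 1), the Grn knockout (replicate 2) and the double knockout (replicate 4) the animal highest in Cd68 was also the highest in C1qa, while in the Trem2 knockout these were different animals. The animals lowest in Cd68 were not the lowest in C1qa in any genotype.

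**Figure D3:**
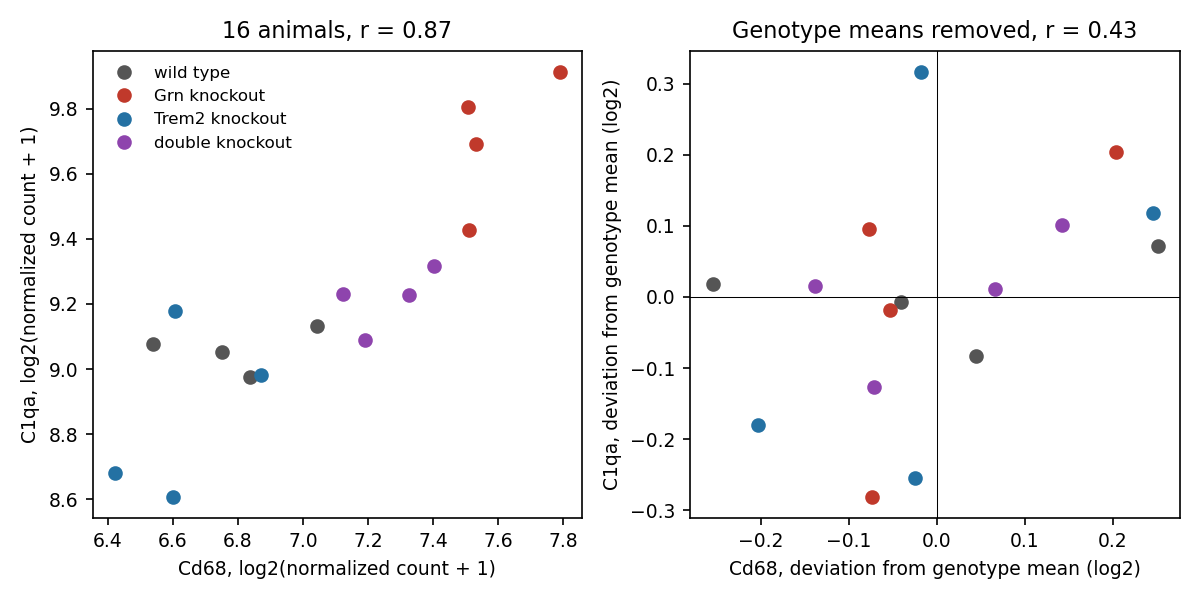
C1qa against Cd68 in the 16 animals, on the log2(normalized count + 1) scale at left and as deviations from the genotype mean (log2) at right, coloured by genotype. The points spread along a line at left (r = 0.87), and more loosely at right (r = 0.43).

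Over all 705 genes, 0 passed the exact permutation test within genotypes after Benjamini-Hochberg adjustment, 19 had an unadjusted p under 0.05, and the lowest adjusted p was 0.110. Spearman's rho also gave 0, with a lowest adjusted p of 0.614. The 3 genes at that lowest value for r were Il6ra, a chain of the interleukin-6 receptor (r = 0.76, exact p = 0.000467, rho 0.60), Gata2, a transcription factor (r = 0.69, exact p = 0.000356, rho 0.70) and Glrb, a subunit of the glycine receptor (r = -0.79, exact p = 0.000353, rho -0.80). Leaving out the 2 farthest animals gave 0.76, 0.76 and -0.79. Over the 16 animals with genotype differences kept, these genes had r of 0.39, -0.01 and -0.40.

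By list, the complement genes, the C1q chains among them, had a median r of 0.66 over the 16 animals. Within genotypes it was 0.28, with 6 of 6 above 0. Activated microglia genes, without Cybb, had 0.48 and 0.18 (6 of 6 above 0) and homeostatic microglia genes 0.31 and 0.19 (6 of 7). Lysosomal enzymes and luminal proteins had 0.45 and 0.07 (8 of 10), membrane proteins -0.03 and -0.11 (1 of 5) and the proton pump 0.05 and 0.03 (5 of 9). All genes had -0.00 and 0.08, with 437 of 705 above 0 within genotypes. In the enzyme list Man2b1, a lysosomal mannosidase, had 0.62 over the 16 animals, and in the membrane list Ctns, the lysosomal cystine transporter, was lowest (-0.53).

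**Figure D4:**
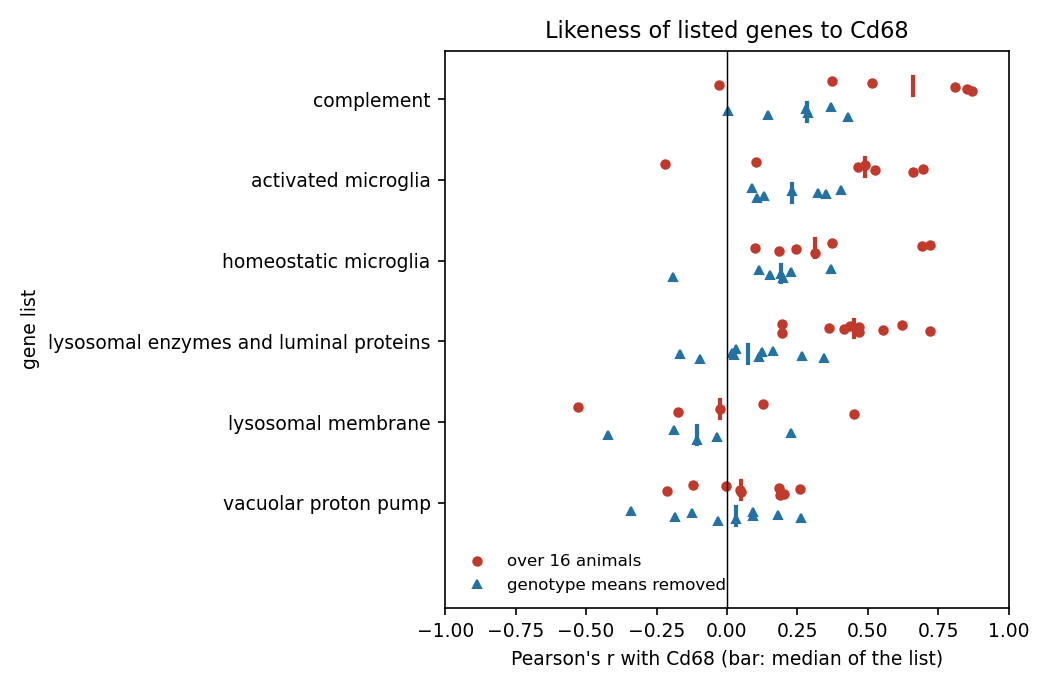
Pearson's r with Cd68 (horizontal axis) of each tested member of 6 gene lists (vertical axis), over 16 animals (circles) and with genotype means removed (triangles), with bars at the medians of the lists (Cybb included). Complement genes reach 0.87 over the 16 animals, and within genotypes the list medians lie between -0.11 and 0.28.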

How the data were processed

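Total RNA, extracted with the RNeasy Mini kit per the labels' protocols, was read on an nCounter panel of 770 genes with 6 positive and 8 negative control probes. The authors deposited 1 signal per probe and animal, with a normalization that the sources used here do not state. In each animal at least 99.7% of gene values lie within 0.0075 counts of a whole number once divided by a single factor (0.907 to 1.36), so the deposited signal is read as a scaled count, and background was not subtracted.

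The 708 genes with a mean of 20 or more over 16 animals were fitted as log2(value + 1) with limma 3.58.1 in R 4.3.3 (lmFit, eBayes), using a mean for each of the 4 groups, which leaves 12 residual degrees of freedom. Tests were two-sided, adjusted by Benjamini-Hochberg over the 708 genes of a comparison, at a threshold of 0.05. Fold differences of weak genes are understated by the pseudocount of 1 and by background. Comparisons that share a group share its animals. Correlations within genotypes were tested over all 331776 arrangements of the animals within genotypes. Both procedures were tested on simulated data. Between the 24 pairs of animals within groups, chi-square over its degrees of freedom was 3.35 to 15.4, above counting noise, and each animal has its own number in the labels, so each is 1 replicate. Replicates are numbered as deposited, which pairs nothing. The sources used here name no cartridge, lane or run day.

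Cd68, the gene lists and the tests were chosen with earlier results of these data known. Genes named are Cd68, Grn, Trem2, the C1q chains, Lamp1 and genes given by rules. The rules take the 8 genes most like Cd68 over 16 animals, the highest and lowest within genotypes, and, per list, at most 6 members by the size of their difference in the Grn knockout. A gene that these rules also take is not reported here. Csf1r, Cd8a and Itgal were named beside these, the last 2 after their values were seen. The other settings tried were pseudocounts, background subtraction, scaling to positive controls, to the median or by quantiles, filters on low values, the groups and variance model in the fit, voom on recovered counts (chosen after seeing the data), rank correlation, and leaving out animals. Promoter sequences are from RefSeq.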

Additional observations from a re-analysis of the deposited data

Results flagged for a closer look

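Of 176 sets of 4 animals examined, for the genes named above and for Cd68 relative to its references, 10 held 1 animal far from the other 3, where about 1 in 20 sets, 8.8 here, would do so by chance. Cd68 in Grn knockout replicate 2 was 220.4 normalized counts, against 181 to 184 in the other 3. That animal was also the highest of its group in Trem2 (251) and C1qa (963). Among microglial genes, Csf1r was 477 in Grn knockout replicate 3, against 549 to 553 in the rest, and Tlr2 was 29.3 in Trem2 knockout replicate 1. Among lysosomal genes, Npc1, the cholesterol exporter, was 582 in Grn knockout replicate 3 and 565 in double knockout replicate 1, Cln3 was 113 in double knockout replicate 3, Npc2 was 46.0 in wild type replicate 2 and Naglu was 174 in double knockout replicate 1. Gata2 was 58.95 in wild type replicate 2, and Gfap, the astrocyte filament, was 906 in double knockout replicate 1.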

How the results depend on the processing

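Under pseudocounts of 10 and 0, background subtraction, median recentring, quantile normalization and voom, the log2 differences of Cd68 moved by less than the SD within genotypes (0.17) in all 6 comparisons. That SD is wider than the SE of a difference. Background subtraction took the Grn knockout against wild type from 0.79 to 0.96, a move larger than the SE of 0.12. With positive control scaling, the median log2 difference of all genes became 0.33 for the Grn, 0.19 for the Trem2 and 0.36 for the double knockout against wild type, and -0.16 for the interaction. Cd68 then had 1.14, 0.041 (a turn of sign), 0.83 and -0.35, and 0.81, -0.15, 0.47 and -0.19 relative to that median; the cause was not tested. Leaving out 1 animal gave Cd68 0.71 to 0.88 for the Grn knockout, -0.25 to -0.08 for the Trem2 knockout and 0.38 to 0.55 for the double knockout against wild type, -0.37 to -0.26 and 0.57 to 0.72 for the double against the Grn and Trem2 knockouts, and -0.24 to -0.07 for the interaction. Relative to homeostatic microglia genes these were 0.53 to 0.69, 0.28 to 0.44 and -0.29 to -0.20 for the Grn knockout and double knockout against wild type and the double against the Grn knockout; with Csf1r alone the first 2 were 0.78 and 0.53.

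Genes called were few and moved with settings. Under positive control scaling they numbered 1 (4 in the main setting), 3 (1) and 4 (2) for the Grn, Trem2 and double knockout against wild type, 1 (2) for the double against the Grn knockout and 1 (0) for the interaction. The Trem2 knockout gave 2 when genes under a mean of 50 were left out, and likewise under a trended robust variance, the double knockout against wild type 8 with quantiles, and the double against the Grn knockout 1 with 2 groups in the fit and 4 with voom. Without 1 animal the counts ran from 3 to 5, 1 to 2, 2 to 6, 1 to 3, 1 to 3 and 0 to 0 in the order of the comparisons in the text. The double knockout against wild type gave 4 without wild type replicate 1 and 6 and 5 without Grn knockout replicates 1 and 2. The Trem2 knockout gave 2 without Grn knockout replicate 1 or 4 or Trem2 knockout replicate 4.

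Genes correlated with Cd68 within genotypes numbered 0 without any 1 animal (0 to 0) and 669 under positive control scaling, where every gene shares the factor of an animal. The r of C1qa over 16 animals was 0.79 without the 2 farthest animals. The 2 planned count-model tests were not run; voom on the recovered counts, added after seeing the data, was run in their place. No paired analysis was possible because the labels give the groups no shared replicate numbers. At 78 to 208 counts, counting error limits what Cd68 can show within genotypes.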
